A study of Mus musculus with 10 samples.

Results

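The Myc and Max network is a family of transcription factors that pair through a basic helix-loop-helix leucine zipper (bHLHZip) domain. It was represented here by 10 genes: Myc, Mycn, Max, Mxd1, Mxd3, Mxd4, Mxi1, Mnt, Mga and Mlx. The members were listed by symbol and found in the platform annotation of the array, where 26 of the 34945 probe sets with 1 gene symbol belonged to them. All 10 were among the 18193 genes measured. Mga had 5 probe sets, Mxd4 had 4, Mycn, Mxd1 and Mxd3 had 3 each, Mxi1, Mnt and Mlx had 2 each, and Myc and Max had 1 each.

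RNA from mouse cells was hybridised to 10 Affymetrix arrays in 3 groups. By their labels, which the marker genes below contradict, the 3 arrays labelled iPS-derived NSC were from neural stem cells differentiated from induced pluripotent stem (iPS) cells, and the 3 labelled iPS were from iPS cells made out of neural stem cells (NSC) of the adult brain by a pMX-based retrovirus carrying Oct4 alone. The iPS cells are described as grown on feeders, irradiated mouse embryonic fibroblasts, with LIF, from colonies picked for their Oct4-GFP signal. The 4 brain NSC arrays held the neural stem cells of adult brain that received no vector. All 3 groups came from OG2 mice, transgenic for Oct4-eGFP and carrying Rosa26 neo/lacZ, mated with ICR females. How many lines, cultures or animals stand behind the arrays of a group is not given in the labels, so p values measure the spread between these arrays, which may be technical. Values are deposited RMA levels on the log2 scale, and the number of arrays limits the precision. The median of all probe sets lay between 5.65 and 5.72 on every array and the lower quartile between 4.22 and 4.41. The values used hold no detection calls, and levels of different probe sets are not compared with each other.

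The names of 2 groups went against their marker genes. Pou5f1, which encodes Oct4, averaged 13.29 ± 0.25 on the arrays labelled iPS-derived NSC, 4.66 ± 0.15 on the labelled iPS arrays and 4.55 ± 0.05 in brain NSC (SD, n = 3, 3 and 4). Zfp42, a gene of undifferentiated embryonic stem cells, averaged 12.4 on the arrays labelled iPS-derived NSC, 3.54 for the labelled iPS arrays and 3.50 for brain NSC. The neural stem cell genes ran the other way: Fabp7 averaged 4.43, 14.2 and 14.4 in the same order of groups, and Olig2 averaged 6.53, 12.8 and 12.5. Of 10 pluripotency markers, 10 were called higher on the arrays labelled iPS-derived NSC in both comparisons, and of 9 measured neural stem cell markers 9 were called lower. The labels were kept as deposited, and every direction below that involves the arrays labelled iPS or iPS-derived NSC rests on labels that these markers contradict.

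Myc and its relatives Mycn and Mycl activate growth genes when bound to Max, at the E-box sequence CACGTG. The Mxd proteins, Mxi1 and Mnt compete for Max and recruit the Sin3 and histone deacetylase corepressors to the same sequence. Mga also binds Max and carries it into the polycomb complex PRC1.6, which silences germline genes, while Mlx pairs with Mlxip and Mlxipl in the response to glucose as well as with Mnt and some Mxd proteins. In mouse, Myc and Mycn maintain the self-renewal of embryonic stem cells, and Mycn is needed for the growth of neural progenitors.

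Below, called means an adjusted p under 0.05 in limma, with Benjamini-Hochberg adjustment over all 18193 genes, together with a difference of at least 2-fold. Each gene was read at its brightest probe set over the 10 arrays unless another is named. Between the arrays labelled iPS-derived NSC and those labelled iPS, Max and Mga were called higher and Mxd3 and Mxd4 lower, which was 4 of 10 members beside 25.3% of all genes (10.8% higher, 14.4% lower). Between the arrays labelled iPS-derived NSC and brain NSC, Mga was called higher and Mxd3 and Mxd4 lower, 3 of 10 members beside 25.4% of all genes (11.3% higher, 14% lower). Between the arrays labelled iPS and brain NSC, Max was called lower and was the 1 member of 10 called, beside 1.84% of all genes (0.951% higher, 0.89% lower). At an adjusted p under 0.05 of any size there were 6, 8 and 3 members in these comparisons, beside 61.1%, 62.7% and 20.4% of all genes. These counts are read against those shares, and nothing particular to the network is drawn from them. The median difference of the 10 members was 0.06 in the comparison of the labelled iPS-derived NSC with the labelled iPS arrays, 0.18 against brain NSC and 0.05 in that of the labelled iPS arrays with brain NSC, where all genes had medians of 0.12, 0.13 and 0.01. The comparisons share arrays with each other, so they are not independent.

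**Figure D1:**
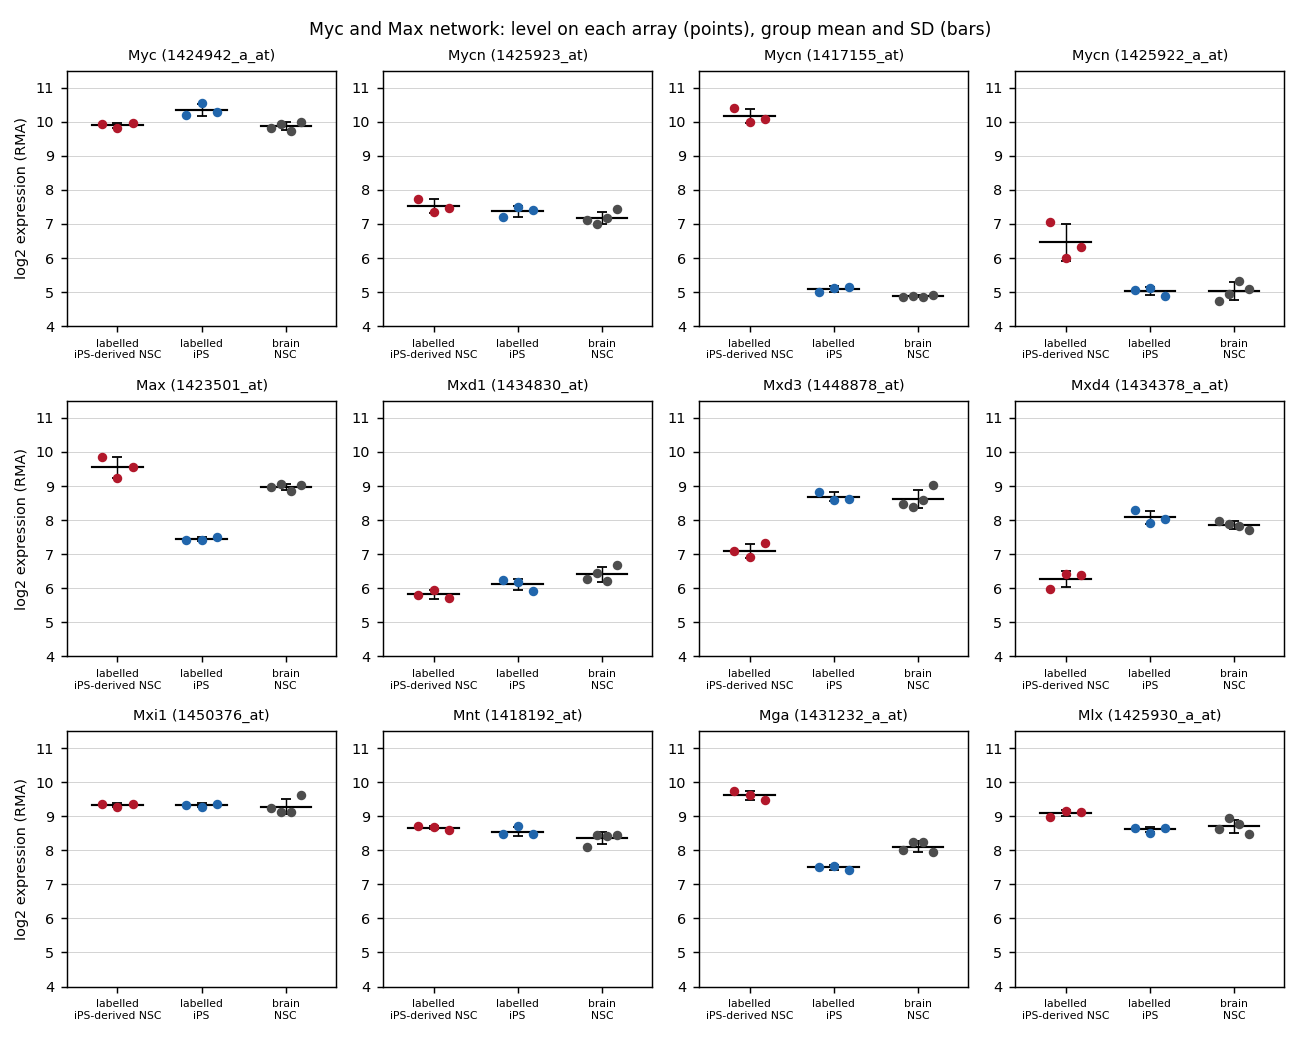
Level of each network member on each array (log2, RMA) on the arrays labelled iPS-derived NSC (n = 3), the arrays labelled iPS (n = 3) and brain NSC (n = 4), at the brightest probe set of each gene and at all 3 probe sets of Mycn. Points are arrays and bars are the group mean and SD; Mycn at 1417155_at lies at 10.00 or above on the arrays labelled iPS-derived NSC and at 5.16 or below elsewhere, while Myc lies between 9.74 and 10.54 on all 10 arrays.

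Myc, on chromosome 15, is the founding activator of the network. Its level at probe set 1424942_a_at was 9.92, 9.82 and 9.95 on the arrays labelled iPS-derived NSC, 10.20, 10.54 and 10.28 on the arrays labelled iPS, and 9.83, 9.93, 9.74 and 9.99 in brain NSC. The arrays labelled iPS lay above all the others, and the other groups overlapped. The differences were small: -0.44 ± 0.11 (SE) between the arrays labelled iPS-derived NSC and those labelled iPS (adjusted p = 0.00321), 0.47 ± 0.10 between the arrays labelled iPS and brain NSC (adjusted p = 0.00612), and 0.03 ± 0.10 between the arrays labelled iPS-derived NSC and brain NSC (adjusted p = 0.827). The larger of these is 1.38-fold, under the 2-fold threshold, so Myc was not called in any comparison.

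Mycn, on chromosome 12, encodes the second activator of the network, and its probe sets disagreed. Probe set 1417155_at read 10.41, 10.00 and 10.09 on the arrays labelled iPS-derived NSC, 5.00, 5.13 and 5.16 on the arrays labelled iPS, and 4.85, 4.90, 4.86 and 4.93 in brain NSC. The arrays labelled iPS-derived NSC stood far above the other 7 arrays, which lay below the median of all probe sets. In a limma fit over 45037 probe sets the difference was 5.07 ± 0.11 (33.6-fold, adjusted p = 1.94e-13) from the arrays labelled iPS and 5.28 ± 0.10 (38.9-fold, adjusted p = 5.87e-14) from brain NSC. Folds against levels this low are not exact. Between the arrays labelled iPS and brain NSC the same probe set differed by 0.21 ± 0.10 (adjusted p = 0.193), with the labelled iPS arrays higher and no overlap.

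A smaller difference in the same direction appeared at 1425922_a_at, with 7.07, 6.00 and 6.31 on the arrays labelled iPS-derived NSC, 5.06, 5.12 and 4.89 on the arrays labelled iPS, and 4.74, 4.95, 5.33 and 5.10 in brain NSC. The arrays labelled iPS-derived NSC lay above all the others, with the first of them highest, and the other groups overlapped. The difference was 1.44 ± 0.22 (adjusted p = 7.78e-05) and 1.43 ± 0.21 (adjusted p = 4.06e-05), called in both comparisons. The probe set that was brightest over the 10 arrays, 1425923_at, read 7.74, 7.35 and 7.46 on the arrays labelled iPS-derived NSC, 7.19, 7.51 and 7.39 on the arrays labelled iPS, and 7.12, 7.01, 7.17 and 7.44 in brain NSC. These groups overlapped, with differences of 0.15 ± 0.14 (adjusted p = 0.350) and 0.34 ± 0.13 (adjusted p = 0.0330) for the labelled iPS-derived NSC against the labelled iPS arrays and against brain NSC. The gene-level result for Mycn therefore depends on the probe set: it was not called at the one with the highest mean over all arrays, and was called higher at the mean of its 3 probe sets (2.22 and 2.35) and at the probe set brightest in any 1 group (5.07 and 5.28), a setting added after the values had been seen. Where on the transcript each probe set lies was not used here.

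The promoter of Mycn is shown because its level at 1417155_at moved further than that of any other probe set of the network. Promoters are RefSeq sequences of 250 bases before to 50 bases after a gene's start in GRCm38.p6, and 9 of the 10 members were matched to 11 of them. The Mycn promoter lies at chr12:12941787-12942086 on the minus strand, and capitals mark matches to TTTGGCGC, a spelling of the E2f recognition sequence, searched on both strands.
Mycn: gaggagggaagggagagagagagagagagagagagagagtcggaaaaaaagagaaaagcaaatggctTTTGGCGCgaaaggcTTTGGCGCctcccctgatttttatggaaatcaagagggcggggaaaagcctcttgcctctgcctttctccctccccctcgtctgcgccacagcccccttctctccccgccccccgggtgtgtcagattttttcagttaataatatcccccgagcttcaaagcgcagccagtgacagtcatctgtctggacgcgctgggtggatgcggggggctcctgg
It holds 2 matches, at -183 to -176 and -168 to -161 from the start, where no base is numbered 0. Of 32851 promoters of the same length, 0.514% hold this sequence, and of the 18109 promoters of measured genes 0.790% do. Among the members' 11 promoters, Mycn's was the 1 with a match to TTTGGCGC. TCCCGC, the E2f6 sequence searched below in germline promoters, stood in 4 of the 11 (36.4%), beside 29.1% of those of measured genes. No E-box CACGTG stands in the Mycn window. A match is a description of letters and was not tested as a binding site.

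Max, on chromosome 12, is the common partner that Myc, Mxd, Mnt and Mga proteins need to bind DNA. Its 1 probe set read 9.86, 9.24 and 9.57 on the arrays labelled iPS-derived NSC, 7.40, 7.43 and 7.49 on the arrays labelled iPS, and 8.97, 9.06, 8.86 and 9.02 in brain NSC. The 3 groups did not overlap, with the labelled iPS-derived NSC highest, brain NSC between and the labelled iPS arrays lowest. The labelled iPS-derived NSC were 2.11 ± 0.13 above the labelled iPS arrays (4.33-fold, adjusted p = 7.35e-09). They were 0.58 ± 0.12 above brain NSC (1.49-fold, adjusted p = 0.00111), under the 2-fold threshold. The labelled iPS arrays were 1.54 ± 0.12 below brain NSC (2.90-fold, adjusted p = 4.64e-06), in a comparison where few genes were called. Leaving out each array in turn kept this last difference between -1.58 and -1.51.

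Mga, on chromosome 2, encodes a large scaffold with both a T-box and a bHLHZip domain. Probe set 1431232_a_at read 9.74, 9.61 and 9.48 on the arrays labelled iPS-derived NSC, 7.51, 7.55 and 7.43 on the arrays labelled iPS, and 8.02, 8.24, 8.24 and 7.93 in brain NSC. Its order of groups was that of Max, again with no overlap. It was 2.11 ± 0.11 above the labelled iPS arrays (4.32-fold, adjusted p = 1.01e-09) and 1.501 ± 0.10 above brain NSC (2.83-fold, adjusted p = 1.72e-08) in the labelled iPS-derived NSC. The labelled iPS arrays were 0.61 below brain NSC (adjusted p = 0.00124), under the 2-fold threshold.

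The 4 other probe sets of Mga differed in size. At 1434746_at the labelled iPS-derived NSC arrays had 9.10, 9.16 and 9.25, the labelled iPS arrays 7.99, 7.59 and 7.78, and brain NSC 7.91, 7.86, 7.73 and 7.96, so that the labelled iPS-derived NSC arrays lay above the rest and the other groups overlapped. That probe set was called higher by 1.38 and by 1.31 in the labelled iPS-derived NSC. Differences of 0.82 and 0.78 at 1422646_at were under 2-fold (adjusted p = 4.22e-05 and 3.38e-05), as were those of 0.60 and 0.36 at 1442356_at. At 1433012_at, where levels were between 3.65 and 4.36, the differences were -0.03 and 0.37. Because the dim probe sets differed less, the mean over the 5 probe sets of Mga gave 0.98 and 0.86, under the 2-fold threshold.

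Mxd3 and Mxd4 encode repressors of the Mxd group, which in many tissues accompany the exit from the cell cycle, Mxd3 in S phase of progenitors. Mxd4, on chromosome 5, read 5.98, 6.42 and 6.40 at 1434378_a_at on the arrays labelled iPS-derived NSC, 8.29, 7.91 and 8.03 on the arrays labelled iPS, and 7.98, 7.90, 7.83 and 7.70 in brain NSC. The arrays labelled iPS-derived NSC lay below the rest, and the other groups overlapped. The difference was -1.81 ± 0.14 (3.51-fold lower, adjusted p = 5.27e-08) from the labelled iPS arrays and -1.58 ± 0.13 (2.998-fold lower, adjusted p = 9.59e-08) from brain NSC. A second probe set, 1434379_at, was called lower in the same comparisons, with differences of -1.21 and -1.01. The last of these was past the threshold in 7 of 13 other settings. The dimmer 1422574_at and 1422575_at, at 5.03 to 6.06 on all arrays, differed by -0.27 and -0.06 from the labelled iPS arrays and by -0.14 and -0.07 from brain NSC, none of them called.

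Mxd3, on chromosome 13, read 7.09, 6.90 and 7.32 at 1448878_at on the arrays labelled iPS-derived NSC, 8.83, 8.58 and 8.63 on the arrays labelled iPS, and 8.48, 8.39, 8.58 and 9.01 in brain NSC. It too was lowest in the labelled iPS-derived NSC, without overlap. The difference was -1.57 ± 0.16 (2.98-fold lower, adjusted p = 9.05e-07) from the labelled iPS arrays and -1.51 ± 0.15 (2.85-fold lower, adjusted p = 6.12e-07) from brain NSC. At 1422970_at the differences were -1.11, which was called, and -0.89, which was not. At 1438847_at they were -0.13 (adjusted p = 0.416) and -0.34 (adjusted p = 0.0240), and the levels of 7.65 to 8.36 overlapped between the groups. Averaged over probe sets, neither Mxd3 (-0.94 and -0.91) nor Mxd4 (-0.84 and -0.70) reached 2-fold.

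**Figure D2:**
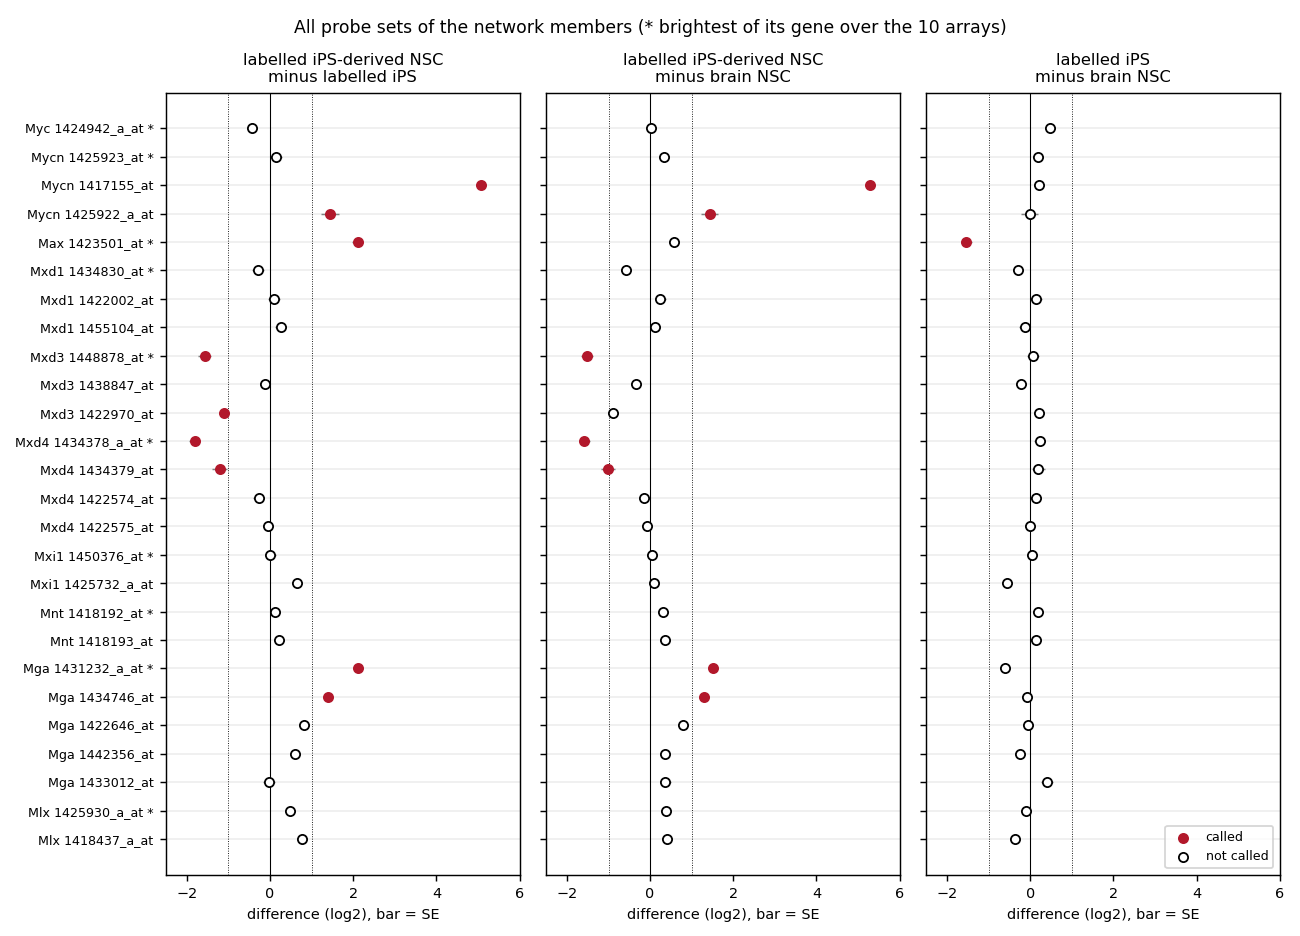
Difference (log2, bar = SE from limma) at each of the 26 probe sets of the network members in the 3 comparisons; filled points were called and dotted lines mark 2-fold. In the arrays labelled iPS-derived NSC, probe sets of 1 gene lie far apart for Mycn (0.15 to 5.07 against the labelled iPS arrays), Mga (-0.03 to 2.11) and Mxd4 (-1.81 to -0.06), and Max is the 1 filled point in the comparison of the labelled iPS arrays with brain NSC.

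Over all 26 probe sets, 5 were called higher and 4 lower in the labelled iPS-derived NSC against the labelled iPS arrays, in 5 genes, beside 20.5% of all probe sets (8.62% higher, 11.8% lower). Against brain NSC 4 were called higher and 3 lower, in 4 genes, beside 20.6% (8.72% higher, 11.9% lower), and 1 was called lower between the labelled iPS arrays and brain NSC, beside 2.14% (1.08% higher, 1.06% lower).

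The other repressors and Mlx stayed under the 2-fold threshold at every probe set. Mxd1, on chromosome 6 and the classical antagonist of Myc in differentiating cells, read 5.79, 5.96 and 5.72 on the arrays labelled iPS-derived NSC, 6.24, 6.18 and 5.92 on the arrays labelled iPS, and 6.28, 6.45, 6.21 and 6.69 in brain NSC. The labelled iPS-derived NSC lay below brain NSC without overlap, by -0.59 ± 0.13 (adjusted p = 0.00104), and overlapped the labelled iPS arrays, with -0.29 ± 0.13 (adjusted p = 0.0758). Its other probe sets, 1422002_at and 1455104_at, differed in the opposite direction, by 0.25 and 0.12 against brain NSC, with adjusted p values of 0.134 and 0.452.

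Mxi1, on chromosome 19, encodes an Mxd protein first found as a partner of Max. At 1450376_at it read 9.37, 9.27 and 9.36 on the arrays labelled iPS-derived NSC, 9.34, 9.26 and 9.36 on the arrays labelled iPS, and 9.25, 9.14, 9.13 and 9.62 in brain NSC, so the groups overlapped in every comparison. The differences were 0.01 ± 0.12 from the labelled iPS arrays and 0.05 ± 0.11 from brain NSC. Its other probe set, 1425732_a_at, had 8.24, 8.07 and 8.21 on the arrays labelled iPS-derived NSC, 7.53, 7.60 and 7.48 on the arrays labelled iPS, and 7.93, 8.20, 7.93 and 8.31 in brain NSC. There the labelled iPS arrays lay below all the others, by 0.64 under the labelled iPS-derived NSC (adjusted p = 0.000374) and by -0.55 against brain NSC (adjusted p = 0.00344), both under 2-fold.

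Mnt, on chromosome 11 and the most widely expressed repressor of the network, read 8.71, 8.67 and 8.61 on the arrays labelled iPS-derived NSC, 8.47, 8.70 and 8.48 on the arrays labelled iPS, and 8.09, 8.43, 8.42 and 8.45 in brain NSC. Brain NSC lay lowest, with replicate 1 apart from its group. The labelled iPS-derived NSC were 0.31 ± 0.11 above brain NSC (adjusted p = 0.0212) and 0.22 above it without that array. Mlx, also on chromosome 11, read 8.98, 9.15 and 9.13 on the arrays labelled iPS-derived NSC, 8.67, 8.52 and 8.65 on the arrays labelled iPS, and 8.64, 8.94, 8.77 and 8.47 in brain NSC. The labelled iPS-derived NSC were above all other arrays, by 0.48 ± 0.12 against the labelled iPS arrays (adjusted p = 0.00309) and 0.38 ± 0.11 against brain NSC (adjusted p = 0.00792). The second probe set of Mlx gave 0.76 and 0.40, in the same direction.

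Counted by whether arrays overlapped, 3 members lay wholly higher and 3 wholly lower in the labelled iPS-derived NSC than in the labelled iPS arrays, beside 40.1% and 29.4% of all genes. Against brain NSC 4 lay wholly higher and 3 wholly lower, beside 35.9% and 25.4%. Between the labelled iPS arrays and brain NSC the counts were 2 and 2, beside 14.5% and 13.8%.

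The E-box was looked for in the members' own promoters, since the network's proteins bind it. CACGTG, which reads the same on both strands, stood in 4 of the 11 promoters (36.4%), beside 7.15% of all promoters and 8.73% of those of measured genes. The 4 belonged to Max (-3 to 3), Mxd4 (-219 to -214), Mnt (-123 to -118) and Mlx (-40 to -35). The promoters of Max (chr12:76962199-76962498, minus strand), Mxd4 (chr5:34187661-34187960, minus strand) and Mlx (chr11:101087040-101087339, plus strand) are shown, from members that were called or, for Mlx, lay wholly higher in the labelled iPS-derived NSC, with the E-box in capitals.
Max: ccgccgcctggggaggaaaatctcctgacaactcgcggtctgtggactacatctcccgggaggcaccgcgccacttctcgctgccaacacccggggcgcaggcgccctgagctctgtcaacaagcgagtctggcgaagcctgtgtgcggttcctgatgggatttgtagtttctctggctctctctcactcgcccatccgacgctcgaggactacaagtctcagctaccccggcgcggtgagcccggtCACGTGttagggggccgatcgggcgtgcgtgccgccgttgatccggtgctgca
Mxd4: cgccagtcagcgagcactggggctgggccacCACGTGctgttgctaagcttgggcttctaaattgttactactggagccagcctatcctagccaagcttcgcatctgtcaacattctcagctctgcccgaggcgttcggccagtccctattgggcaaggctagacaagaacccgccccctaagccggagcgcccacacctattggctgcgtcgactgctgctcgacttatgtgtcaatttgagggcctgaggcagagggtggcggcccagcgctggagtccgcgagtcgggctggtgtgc
Mlx: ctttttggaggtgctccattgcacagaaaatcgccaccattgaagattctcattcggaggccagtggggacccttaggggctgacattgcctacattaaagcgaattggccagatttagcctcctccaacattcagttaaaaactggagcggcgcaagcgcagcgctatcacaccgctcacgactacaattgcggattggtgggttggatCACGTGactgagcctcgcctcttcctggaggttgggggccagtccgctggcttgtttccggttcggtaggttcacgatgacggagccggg
Max was called higher and Mxd4 lower in the labelled iPS-derived NSC than in the labelled iPS arrays, so the 4 genes with the sequence did not move together. Mga, Mxd3, Mxd1, Mxi1 and Mycn had no match in their windows.

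Genes with the pattern most like a member's were sought over the 10 arrays, by the root mean square (RMS) difference of the log2 values after each gene's own mean was taken off. Closest to Myc were Ist1 (RMS 0.0773), Meak7 (0.0909) and Orai2 (0.0920), and closest to Mxd4 were Ppp1r9a (0.115), Mzt1 (0.121) and Cfap97 (0.121). The levels of Mxd4 spanned 2.31 over the arrays and those of Myc 0.80. Ppp1r9a averaged 7.89 on the arrays labelled iPS-derived NSC, 9.87 on the labelled iPS arrays and 9.50 in brain NSC, and Ist1 averaged 10.51, 11.07 and 10.51. For Mxd1 the closest were Mras, Supt16 and Tfg (0.110 to 0.122), for Mycn at 1425923_at Prkar1b, D930048N14Rik and Nrxn3 (0.0772 to 0.0829), and for Mxi1 Hs2st1, Adarb1 and Fshb (0.0583 to 0.0675). The levels of Mxi1 spanned 0.49, so likeness to it is mostly likeness to a flat line.

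Genes that work with the network were read in 13 lists drawn from general knowledge, given as counts of called genes beside the 25.3% called in the labelled iPS-derived NSC against the labelled iPS arrays, the 25.4% called against brain NSC and the 1.84% between the labelled iPS arrays and brain NSC. In bulk RNA, fewer cells of a type and less RNA per cell cannot be told apart. Fibroblast markers moved with the same groups: of 12 markers of feeder fibroblasts, 5 were called higher and 0 lower in the labelled iPS-derived NSC against the labelled iPS arrays, and 6 higher and 1 lower against brain NSC. Their summed log2 level was 67.4 to 77.5 on the arrays labelled iPS-derived NSC, 60.2 to 61.2 on the labelled iPS arrays and 60.8 to 61.7 in brain NSC. Col1a2, a collagen of fibroblasts, lay between 8.02 and 9.75 in the labelled iPS-derived NSC, between 5.84 and 6.14 in the labelled iPS arrays and between 5.74 and 5.87 in brain NSC. Lum and Fap lay at or below 4.38 on every array, and no marker was listed at 0. Neuron markers also differed: of 9, 3 were called higher (Stmn2, Tubb3 and Nefl) and 1 lower (Gap43) in the labelled iPS-derived NSC in both comparisons, and their summed level was 56.5 to 57.4 in the labelled iPS-derived NSC, 45.7 to 45.9 in the labelled iPS arrays and 47.1 to 48.1 in brain NSC. The median difference of the 9 neuron markers was 0.14 against the labelled iPS arrays and 0.08 against brain NSC. All genes had medians of 0.12 and 0.13. Dcx, which marks young neurons, lay between 4.54 and 4.86 on every array. Of 7 astrocyte markers, 0 were called higher and 3 lower (Aldoc, Slc1a2 and S100b) in both comparisons, with summed levels of 37.5 to 37.9 in the labelled iPS-derived NSC, 47.5 to 48.2 in the labelled iPS arrays and 47.2 to 48.6 in brain NSC. Of 7 microglia markers, Cd68 was the 1 called, higher in both, and the summed levels were 34.5 to 35.8 in the labelled iPS-derived NSC, 31.8 to 32.2 in the labelled iPS arrays and 31.9 to 33.0 in brain NSC. Aif1, Itgam and Ptprc, which define microglia and other leukocytes, lay at or below 4.34 on every array. Csf1r of the same list was brighter, at 7.19 to 7.36 in the labelled iPS-derived NSC. It lay at 6.82 to 6.91 in the labelled iPS arrays and at 6.68 to 6.91 in brain NSC. Its differences of 0.40 and 0.51 were without overlap but under 2-fold. In the labelled iPS arrays against brain NSC, no marker of these 4 lists was called. The genes named from these lists were chosen after their values were seen. The part of such cells in the results was not tested. The 3' minus 5' difference of the Actb control probe sets, a sign of RNA integrity, averaged 0.51 ± 0.08 in the labelled iPS-derived NSC, 0.57 ± 0.09 in the labelled iPS arrays and 0.32 ± 0.12 in brain NSC, and its part was not tested either.

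Of 9 other bHLHZip genes of the network and its relatives, 2 were called higher and 0 lower in the labelled iPS-derived NSC against the labelled iPS arrays (median 0.57), and 3 higher and 0 lower against brain NSC (median 0.69), where the medians of all genes were 0.12 and 0.13. Mycl, the third Myc gene, lay at 8.11 to 8.27 in the labelled iPS-derived NSC, 6.84 to 7.02 in the labelled iPS arrays and 6.99 to 7.42 in brain NSC, and was called higher by 1.21 ± 0.12 and 1.04 ± 0.11. Mitf, a master regulator of melanocytes, was called higher by 1.39 ± 0.16 against the labelled iPS arrays. The partners of Mlx that sense glucose, Mlxip and Mlxipl, were called higher by 1.15 and 1.14 against brain NSC. They stood 0.99 and 0.97 above the labelled iPS arrays, just under 2-fold. With the mean of their probe sets, Mitf and Mycl fell short of 2-fold against the labelled iPS arrays (0.73 and 0.65).

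The coactivator and corepressor lists were called about as often as all genes. Against the labelled iPS arrays and against brain NSC the shares were 22.7% and 22.7% for the coactivator list and 21.4% and 28.6% for the corepressors. Of 22 genes listed with the Myc coactivators, 3 were called higher and 2 lower in each comparison of the labelled iPS-derived NSC. The 2 lower were Mycbp2 and Bin1 in both, and Bin1 is a restrainer of Myc rather than a coactivator. Mycbp2 was named after its values were seen. Kat2b, a histone acetyltransferase, was called higher by 1.43 ± 0.09 against the labelled iPS arrays, and Ruvbl1, a helicase of the Tip60 complex, by 1.22 ± 0.11 against brain NSC. Bin1, which binds Myc and restrains it, was called lower by -1.64 ± 0.19 and by -1.66 ± 0.18, though with the mean of its probe sets it differed by -0.40 and -0.34. Of 14 corepressor subunits, 2 were called higher and 1 lower against the labelled iPS arrays, and 2 higher and 2 lower against brain NSC. The deacetylase Hdac1 was higher by 1.44 ± 0.11 and 1.79 ± 0.10, and its close relative Hdac2 lower by -1.40 ± 0.11 and -1.21 ± 0.10. Hdac1 lay at 12.00 to 12.19 in the labelled iPS-derived NSC, at 10.56 to 10.76 in the labelled iPS arrays and at 10.16 to 10.43 in brain NSC, without overlap. Sap30, a subunit of the Sin3 complex, was higher by 1.26 against brain NSC.

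Among 21 genes that control the stability of the Myc protein, 1 was called higher and 3 lower against the labelled iPS arrays, and 0 higher and 1 lower against brain NSC, or 19.0% and 4.76% of the list. Gsk3b, the kinase that marks Myc for destruction, was lower by -1.23 ± 0.32 and by -2.15 ± 0.30. The ubiquitin ligase subunit Skp2 was lower by -1.53 ± 0.11 against the labelled iPS arrays and stood at -0.57 against brain NSC. Of 18 regulators of the Myc gene and its mRNA, 6 were called higher and 2 lower against the labelled iPS arrays, and 6 higher and 3 lower against brain NSC. Lin28a, which blocks the let-7 microRNAs, lay at 11.17 to 11.68 in the labelled iPS-derived NSC, at 3.49 to 3.55 in the labelled iPS arrays and at 3.68 to 4.09 in brain NSC. The last 2 ranges lie under the lower quartile of those arrays, so its differences of 7.84 ± 0.14 and 7.47 ± 0.13 are not exact. Tcf7l2, a nuclear partner of beta-catenin, was lower by -3.81 ± 0.18 and by -3.55 ± 0.17. In neither of these lists was any gene called between the labelled iPS arrays and brain NSC, and the same held for the bHLHZip genes, coactivators and corepressors.

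The complex that holds Mga was uneven. Of 14 measured partners in PRC1.6, 2 were called higher and 3 lower in the labelled iPS-derived NSC against the labelled iPS arrays (median 0.12), and 4 higher and 3 lower against brain NSC (median 0.42). Pcgf6, the ring finger protein specific to this complex, lay at 11.83 to 11.85 in the labelled iPS-derived NSC, at 9.77 to 9.95 in the labelled iPS arrays and at 9.85 to 9.96 in brain NSC, higher by 1.97 ± 0.09 and 1.95 ± 0.08. Yaf2, an alternative partner of the Ring proteins, lay at 7.71 to 7.87 in the labelled iPS-derived NSC, at 11.23 to 11.44 in the labelled iPS arrays and at 11.13 to 11.37 in brain NSC, lower by -3.58 ± 0.11 and -3.46 ± 0.10. Ring1, a ubiquitin ligase of histone H2A, was lower by -1.49 ± 0.23 against the labelled iPS arrays. It was the 1 partner called between the labelled iPS arrays and brain NSC, higher by 1.29 ± 0.22. E2f6 was called lower in the labelled iPS-derived NSC against brain NSC, by -1.07 ± 0.10. Against the labelled iPS arrays it stood at -0.999 ± 0.10, just under 2-fold. E2f6 was named after its values were seen.

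The germline genes listed as silenced by Mga and PRC1.6 were mostly higher where Mga and Pcgf6 were higher and Yaf2 and E2f6 lower. Of 17 measured, 14 were called higher and 1 lower in both comparisons of the labelled iPS-derived NSC, with medians of 3.29 against the labelled iPS arrays and 3.16 against brain NSC. Syce2, of the synaptonemal complex, lay at 11.33 or higher in the labelled iPS-derived NSC, at 4.97 to 5.22 in the labelled iPS arrays and at 4.87 to 5.55 in brain NSC, higher by 6.29 ± 0.15 and 6.17 ± 0.14. Stra8, which opens meiosis in response to retinoic acid, was higher by 5.75 ± 0.12 and 5.70 ± 0.11. The germ cell helicase Ddx4 lay at 8.66 to 8.92 in the labelled iPS-derived NSC, at 3.14 to 3.37 in the labelled iPS arrays and at 3.38 to 3.67 in brain NSC, the last 2 ranges under the lower quartile of those arrays. The 1 gene called lower was Tdrkh, a partner of Piwi proteins, by -2.60 and -2.54, and Smc1b and Tdrd1 were not called. Ddx4, Tdrkh, Smc1b and Tdrd1 were named after their values were seen. Between the labelled iPS arrays and brain NSC, 0 of the 17 were called, with a median of -0.10.

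**Figure D3:**
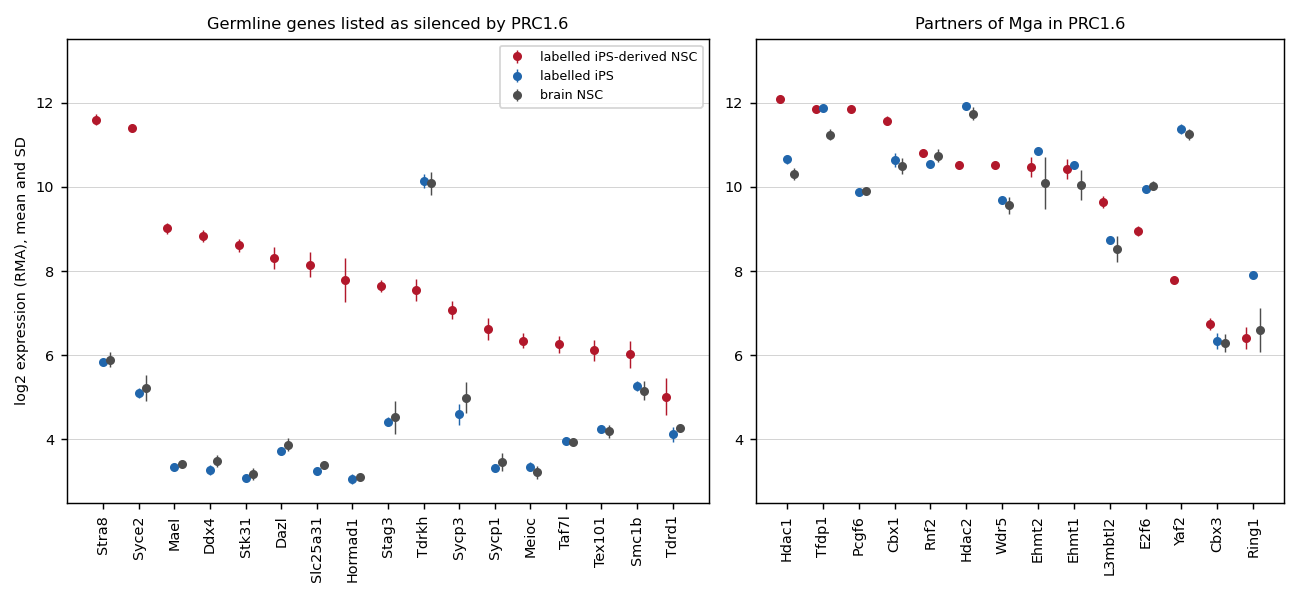
Level (log2, RMA, mean and SD) of the 17 measured germline genes listed as silenced by PRC1.6 and of the 14 measured partners of Mga in the complex, on the arrays labelled iPS-derived NSC (n = 3), the arrays labelled iPS (n = 3) and brain NSC (n = 4). Among the germline genes 14 are higher on the arrays labelled iPS-derived NSC and Tdrkh is lower, while among the partners Pcgf6 and Hdac1 are higher and Yaf2 and Hdac2 lower there; genes are not compared with each other.

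Promoters of these germline genes were searched for the sequences that the complex is known to contact, the E-box of Mga and Max and the E2f6 sequence. Part of the genes held them: CACGTG stood in promoters of 11 of the 18 listed genes and TCCCGC in those of 10. Dazl, Tex101 and Stra8, called higher, and Tdrkh, called lower, held neither, nor did Zcwpw1, which was not measured. Tdrd1, not called, held CACGTG, and Smc1b, not called, held TCCCGC. All 18 listed genes were matched to 24 promoters, of which 14 (58.3%) held CACGTG and 12 (50%) held TCCCGC on either strand, beside 7.15% and 19.98% of all promoters and 8.73% and 29.1% of those of measured genes. The promoters of Ddx4 (chr13:112652261-112652560, minus strand) and one of the 2 of Syce2 (chr8:84872008-84872307, plus strand) are shown because each holds both sequences, in capitals, with TCCCGC appearing as GCGGGA where it lies on the other strand.
Ddx4: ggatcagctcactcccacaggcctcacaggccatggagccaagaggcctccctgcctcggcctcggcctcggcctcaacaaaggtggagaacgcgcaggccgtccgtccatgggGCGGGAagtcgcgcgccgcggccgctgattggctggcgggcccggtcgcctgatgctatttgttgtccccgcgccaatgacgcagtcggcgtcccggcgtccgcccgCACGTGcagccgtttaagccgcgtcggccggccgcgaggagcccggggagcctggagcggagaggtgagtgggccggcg
Syce2: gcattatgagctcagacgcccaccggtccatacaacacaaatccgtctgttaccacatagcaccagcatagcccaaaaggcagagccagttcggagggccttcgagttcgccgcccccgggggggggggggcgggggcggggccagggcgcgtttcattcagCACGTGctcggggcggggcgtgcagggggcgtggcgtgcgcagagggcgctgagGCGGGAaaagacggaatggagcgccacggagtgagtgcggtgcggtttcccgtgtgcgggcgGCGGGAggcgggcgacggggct
In Ddx4 the E-box stands at -29 to -24 and the other sequence at -136 to -131. In Syce2 the E-box stands at -88 to -83, with the other sequence at -34 to -29 and at 29 to 34.

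The genes best known as targets that Myc activates are those of ribosome biogenesis. Of 32 measured, 16 were called higher and 0 lower in the labelled iPS-derived NSC against the labelled iPS arrays (median 0.99), and 19 higher and 0 lower against brain NSC (median 1.10). Rrp12, a factor of ribosome export, lay at 9.51 to 9.87 in the labelled iPS-derived NSC, at 8.06 to 8.10 in the labelled iPS arrays and at 7.67 to 8.26 in brain NSC, higher by 1.59 ± 0.15 and 1.76 ± 0.14. Nop16, a nucleolar protein, was higher by 1.58 ± 0.09 against the labelled iPS arrays and Tcof1, which supports transcription of ribosomal RNA, by 1.99 ± 0.17 against brain NSC. Called differences in this list ran between 1.04 and 1.59 against the labelled iPS arrays and between 1.03 and 1.99 against brain NSC. No gene of the list was called between the labelled iPS arrays and brain NSC (median 0.16), beside 1.84% of all genes.

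Targets in metabolism and translation had called shares of 14.8% and 25.9% for metabolism and of 5.56% and 16.7% for translation, against the labelled iPS arrays and against brain NSC, none of them clearly above the shares of all genes. Of 27 genes of nucleotide, polyamine and one-carbon metabolism, 3 were called higher and 1 lower against the labelled iPS arrays (median 0.35), and 6 higher and 1 lower against brain NSC (median 0.53). Ppat, the entry enzyme of purine synthesis, was higher by 1.29 ± 0.10 and 1.56 ± 0.09, and Adss, a later enzyme of that pathway, by 1.09 ± 0.09 against the labelled iPS arrays. Odc1, which makes putrescine and is a classical Myc target, lay at 13.22 to 13.52 in the labelled iPS-derived NSC, at 12.34 to 12.41 in the labelled iPS arrays and at 11.62 to 12.20 in brain NSC, higher by 1.02 and 1.51. Of 18 translation factors and tRNA synthetases, 1 was called higher against the labelled iPS arrays and 3 against brain NSC, with 0 lower. These included the synthetase genes Cars (1.04 and 1.27) and, against brain NSC, Farsa (1.03). The calls of Cars and Farsa ended in several other settings.

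Cell cycle genes activated by Myc changed in both directions. Of 23, 3 were called higher and 5 lower against the labelled iPS arrays, and 3 higher and 6 lower against brain NSC. Ccnd2, a D-type cyclin, lay at 6.15 to 7.10 in the labelled iPS-derived NSC, at 13.33 to 13.41 in the labelled iPS arrays and at 12.26 to 12.76 in brain NSC, lower by -6.67 ± 0.20 and -5.75 ± 0.18. Id2, an inhibitor of differentiation factors, was lower by -4.63 ± 0.11 and -2.69 ± 0.10, and was called higher by 1.93 ± 0.10 in the labelled iPS arrays against brain NSC. The kinase Cdk6 was called lower by -2.14 ± 0.15 in that last comparison, in which 2 genes of the list were higher and 1 lower.

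Of 20 genes that Myc represses, 1 was called higher and 4 lower against the labelled iPS arrays (25%, median 0.16). Against brain NSC 2 were called higher and 5 lower (35%, median 0.09). The inhibitors of cyclin-dependent kinases Cdkn2c and Cdkn1b were the furthest apart: Cdkn2c lay at 5.41 to 6.04 in the labelled iPS-derived NSC, at 10.28 to 10.41 in the labelled iPS arrays and at 10.64 to 10.87 in brain NSC, and Cdkn1b at 5.66 to 6.30, 8.78 to 9.57 and 9.17 to 9.60 in the same order of groups. The differences of Cdkn2c were -4.60 ± 0.14 and -5.03 ± 0.13, and those of Cdkn1b -3.23 ± 0.22 and -3.39 ± 0.20. Timp3, an inhibitor of matrix proteases, was the 1 gene of the list called between the labelled iPS arrays and brain NSC, lower by -1.28 ± 0.10.

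Targets of Mlx and its partners changed in both directions, with 3 of 14 called higher and 4 lower in each comparison of the labelled iPS-derived NSC. Txnip, which limits glucose uptake, lay at 10.28 to 11.12 in the labelled iPS-derived NSC, at 7.30 to 7.82 in the labelled iPS arrays and at 8.18 to 8.78 in brain NSC, higher by 3.08 ± 0.21 against the labelled iPS arrays. The glycolytic enzyme Hk2 was higher by 2.23 ± 0.15 against brain NSC. The fatty acid desaturase Scd1 was lower by -3.34 ± 0.13 and -3.27 ± 0.12, without overlap of the arrays. None of the 14 was called between the labelled iPS arrays and brain NSC, in a fit that called 335 of all genes.

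**Figure D4:**
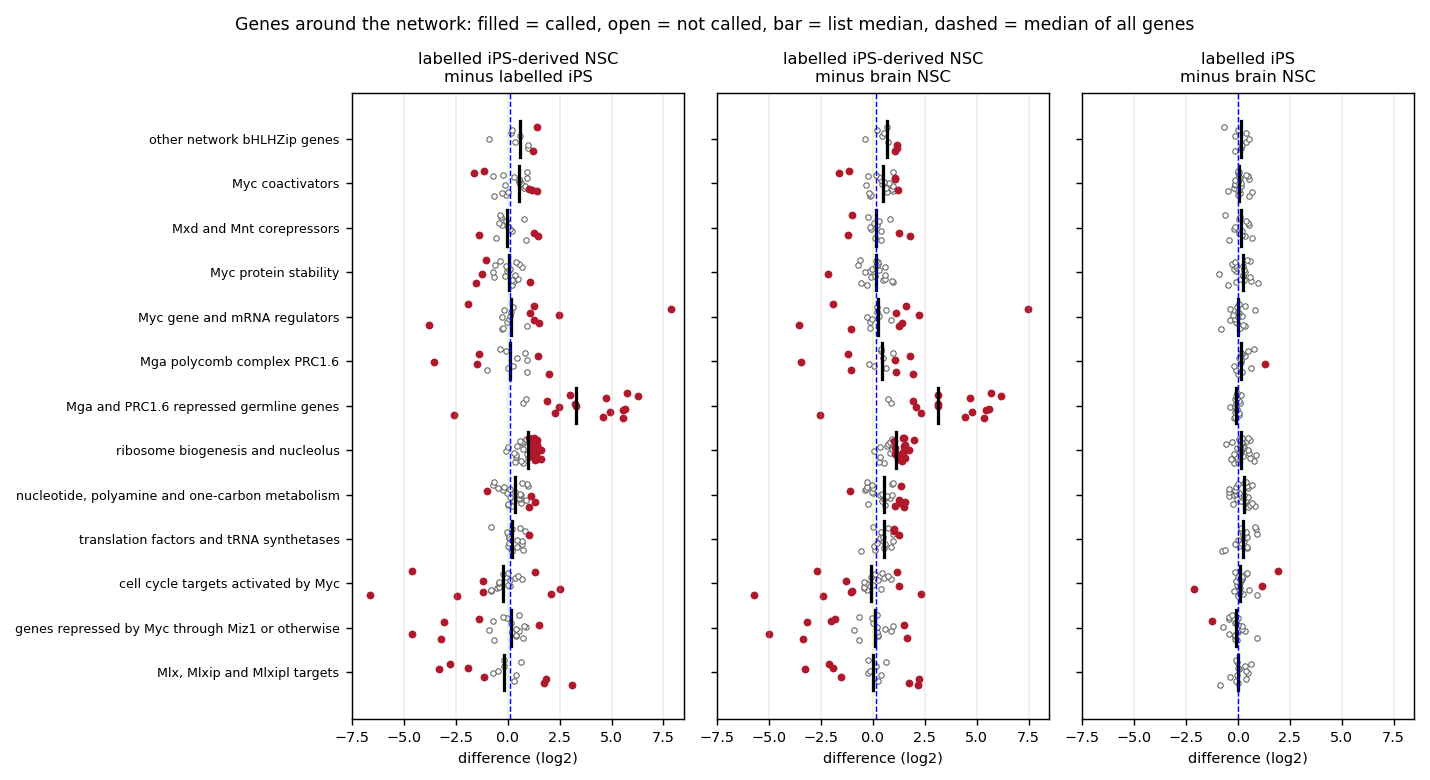
Difference (log2) of each measured gene of 13 lists around the network in the 3 comparisons; filled points were called, black bars are list medians and the dashed line is the median of all genes. Germline genes (median 3.29 on the arrays labelled iPS-derived NSC against those labelled iPS) and ribosome biogenesis genes (0.99) lie to the right. Some cell cycle targets and some genes repressed by Myc lie far to the left, while the medians of these lists in that comparison are -0.24 and 0.16. Few points are filled in the comparison of the labelled iPS arrays with brain NSC.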

How the data were processed

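The authors deposited 1 table of log2 levels made with RMA, per the submitters' processing notes, of a version not given in the sources used here. This method makes the distributions of the arrays alike, so a shift shared by most genes is largely removed and differences between dim genes are compressed. Groups came from the sample titles. Of 45101 probe sets, 64 were controls, 34945 had 1 symbol in the platform annotation, 932 several and 9160 none, and the last 2 kinds were left out of gene tests. The brightest probe set over the 10 arrays stood for each of 18193 genes. Group differences came from limma 3.58.1 under R 4.3.3 (lmFit, eBayes) over all 3 groups, with 7 residual and 5.95 prior degrees of freedom, two-sided p values and Benjamini-Hochberg adjustment over all genes, and over 45037 probe sets in a second fit. The code was tested on simulated data. Figures used Python 3.11.15 and matplotlib 3.10.9.

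The members and all lists were chosen with earlier results of these data known. The 13 lists around the network and 6 marker lists held 324 entries (319 distinct genes), and 303 of the 324 entries were measured. The naming rule took all 10 members, per list and comparison the 2 called genes with the largest absolute difference whose arrays did not overlap, and the 3 genes most like Myc, Mycn, Mxd1, Mxd4 and Mxi1 by RMS difference. It also took Pou5f1, Zfp42, Fabp7 and Olig2 as label checks. Alternatives varied the probe set rule, filters, scaling, test, replicate block and the arrays left out. Scan dates were not used here.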

Additional observations from a re-analysis of the deposited data

Results flagged for a closer look

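In the 4 brain NSC arrays, Dixon's ratio (the gap of the extreme array to its nearest neighbour over the group's range) was past its critical value in 4 of the 62 features tested. Chance flags about 1 in 20 groups. Mnt at 1418192_at had a ratio of 0.9235, with replicate 1 at 8.09 and the others between 8.42 and 8.45. Mxd4 at 1422575_at had 0.8375, with replicate 1 at 5.47 and the others between 5.21 and 5.25. Mycl had 0.867, with replicate 4 at 7.42 and the others between 6.99 and 7.05. Hk2 had 0.8739, with replicate 2 at 9.40 and the others between 8.92 and 8.98. Groups of 3 arrays were not tested.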

How the results depend on the processing

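The rule for choosing a gene's probe set moved the members' calls most. With each gene's probe sets averaged, 2 members were called in the labelled iPS-derived NSC against the labelled iPS arrays in place of 4, and 1 against brain NSC in place of 3, since Mxd3, Mxd4 and Mga fell under 2-fold and Mycn passed it. With the probe set brightest in any 1 group, an alternative chosen after seeing the data, Mycn joined the called members in both comparisons. Under every other alternative, including each array left out, the numbers of called members stayed at 4, 3 and 1. The number of genes called between the labelled iPS arrays and brain NSC was 335, and became 223 with the mean of probe sets, 183 with a test against 1.5-fold, 539 without brain NSC replicate 4 and 298 without brain NSC replicate 1. With a replicate block it was 537, beside 4599 and 4658 in the comparisons of the labelled iPS-derived NSC, where the members' calls did not change. Replicate number 4 occurs in brain NSC alone, so the block fits that array exactly and acts much like leaving it out. Over all probe sets, this array correlated at 0.990 to 0.992 with the rest of brain NSC and at 0.990 with the labelled iPS arrays. Brain NSC replicates 1, 2 and 3 correlated with each other at 0.995 to 0.997. The replicate numbers share no origin in the labels, and deviations of same-numbered arrays correlated between -0.21 and 0.13, so such arrays were not taken as pairs. Reversals of sign were all in differences that were not called. With the mean of probe sets, Mxi1 in the labelled iPS arrays against brain NSC became -0.26, and Mxd1 in the labelled iPS-derived NSC against the labelled iPS arrays 0.0203. With quantile normalization Mxi1 in the labelled iPS arrays against brain NSC became -0.0123. With arrays centred on the median Mxi1 became -0.0384 against the labelled iPS arrays and Myc -0.0027 against brain NSC in the labelled iPS-derived NSC. With 1 array left out, Mxd3 ranged between -0.0159 and 0.193 and Mxi1 between -0.0165 and 0.146 in the labelled iPS arrays against brain NSC. In the labelled iPS-derived NSC, Mxi1 ranged between -0.0195 and 0.0428 against the labelled iPS arrays and between -0.0054 and 0.157 against brain NSC, and Myc between -0.0175 and 0.0682 against brain NSC. The test against 1.5-fold ended the calls of Ring1 in the labelled iPS arrays against brain NSC and of Gsk3b in the labelled iPS-derived NSC against the labelled iPS arrays. Cars against the labelled iPS arrays ended at 0.96 without labelled iPS-derived NSC replicate 1 and at 0.99 with centred arrays. Farsa against brain NSC ended at 0.91 to 0.99 without labelled iPS-derived NSC replicate 1 or 3 or brain NSC replicate 1 or 3. The mean of probe sets lowered both further. Cars fell to 0.68 against the labelled iPS arrays and 0.79 against brain NSC, and Farsa to 0.58 against brain NSC. The second probe set of Mxd3 in the labelled iPS-derived NSC against the labelled iPS arrays was called in 12 of 13 settings. The causes were not tested. No scanner files or detection calls were used here, so how far dim probe sets lie above background is unknown.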
